A study of Mus musculus with 4 samples.

Results

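Homologous recombination and the Fanconi anaemia pathway repair broken and crosslinked DNA in dividing cells. Their genes were followed here in mouse CD8+ T cells activated in culture with or without spermidine. The set held every gene whose symbol is Fanc followed by a letter and at most a digit, together with named genes of recombination and end resection, 35 symbols in all. Of these, 32 were measured, out of 19505 genes with a symbol on the array. Xrcc2, Rad54b and Rbbp8 were not analysed here. Where a gene has several features on the array, the one with the highest mean signal stands for it. Each of the 32 genes had a single feature, so this choice changed nothing. Fance and Fancf entered through the symbol pattern alone.

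The cells came from spleens and lymph nodes of mice of the strain labelled C57/BL6, with age, sex and genotype not given in the sources used here. All cultures were stimulated for 3 days with beads carrying antibodies to CD3 and CD28 and were expanded with IL-2, a T cell growth factor. The 2 spermidine cultures also received 25 µM spermidine, a natural polyamine, and the 2 control cultures were left untreated. RNA of each culture was hybridised to a Clariom S Mouse array, and the signals are log2 values. The labels call the arrays of a group biological replicates without naming animals or pools, so p-values measure only the spread between these samples.

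Array medians lay between 5.13 and 5.25 over 22206 gene features, and the number of arrays limits the precision. Background was set at 6.35, the mean over arrays of the 95th percentile of 23 features whose probes match no genomic sequence. Of the 9 measured T cell markers, all were above it, and Cd8a stood at 16.66 and 16.68 in control against 16.59 and 16.57 with spermidine. Of the 9 macrophage markers, 0 were above background. Of the CD4 T cell markers 2 of 3 were above it, and of the NK cell markers 2 of 4. Cd4 read 7.11 and 6.84 in control against 6.59 and 7.24 with spermidine. Zbtb7b, also a CD4 T cell marker, read 6.32 and 6.88 in control against 7.32 and 7.41 with spermidine. The NK cell markers above background, Klrb1c and Eomes, overlapped between groups. B cell markers averaged 5.58 and 5.47 in control against 6.23 and 6.01 with spermidine, 9 of 9 were higher with spermidine, and 4 of 9 were above background. Among the defining B cell markers, Cd79a read 6.44 and 6.50 in control against 7.40 and 7.15 with spermidine. Ebf1 read 6.77 and 6.56 in control against 7.15 and 7.21 with spermidine. Pax5 was below background on every array, between 3.98 and 4.28, so its small difference carries no level. Jchain, the joining chain of secreted antibodies, had the largest difference of the 9, at 6.09 and 5.56 in control against 7.47 and 8.03 with spermidine (difference 1.92). These differences lie beside every result below, and their part in it was not tested.

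In the Fanconi pathway a multi-subunit ubiquitin ligase, the core complex, acts where a crosslink stalls replication. It ubiquitinates the FANCD2-FANCI clamp, after which nucleases unhook the lesion. The break that results is cut back to single-stranded ends (resection), and with the help of BRCA1, BRCA2 and PALB2 it is repaired by strand exchange with the sister chromatid. The pathway is used mainly in S and G2 phase, and many of its genes are known to be transcribed with the cell cycle. Activated CD8+ T cells divide fast.

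Most of the genes were lower with spermidine. The difference between group means was below 0 in 28 of 32 genes, with a median of -0.40 on the log2 scale (1.32-fold lower), against a median of -0.0067 over all gene features, of which 50.9% were below 0. Both spermidine arrays lay below both control arrays in 18 of 32 genes (56.2%), against 18.4% of all gene features and 22.5% of the features above background. In 1 gene, Rad51d, both lay above both controls (18.3% of all features). In 13 genes (40.6%) the difference was below 0 and larger than the wider of the gaps between the 2 arrays of a group, against 11.9% of all features; Rad51d was higher by more than that gap, as were 12.6% of all features. Of the 27 genes with a mean above background, 25 were below 0 (54.2% of features above background), 17 lay below both controls, 13 were lower by more than the gap (14.8%) and 10 were lower at an unadjusted p under 0.05 (5.32%). In bulk RNA, fewer cells of a type and less RNA per cell cannot be told apart.

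No single gene passed the test. In limma's fit across all 22206 features, 0 features (0%) had an adjusted p under 0.05, and the adjusted p of the 32 genes ran from 0.637 to 0.999 (limma, Benjamini-Hochberg). The unadjusted p was under 0.05 in 1558 features, and 10 of the 32 genes were among them, all lower. The share of features at that p was 3.64% for lower and 3.38% for higher signals. This count of genes was lower without any single array other than spermidine replicate 1, as was the number of all features at that p. The median difference was -0.26 without spermidine replicate 2 and -0.63 without spermidine replicate 1. The genes were gathered with earlier results of these data known, so the counts describe the set and carry no test of it.

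**Figure D1:**
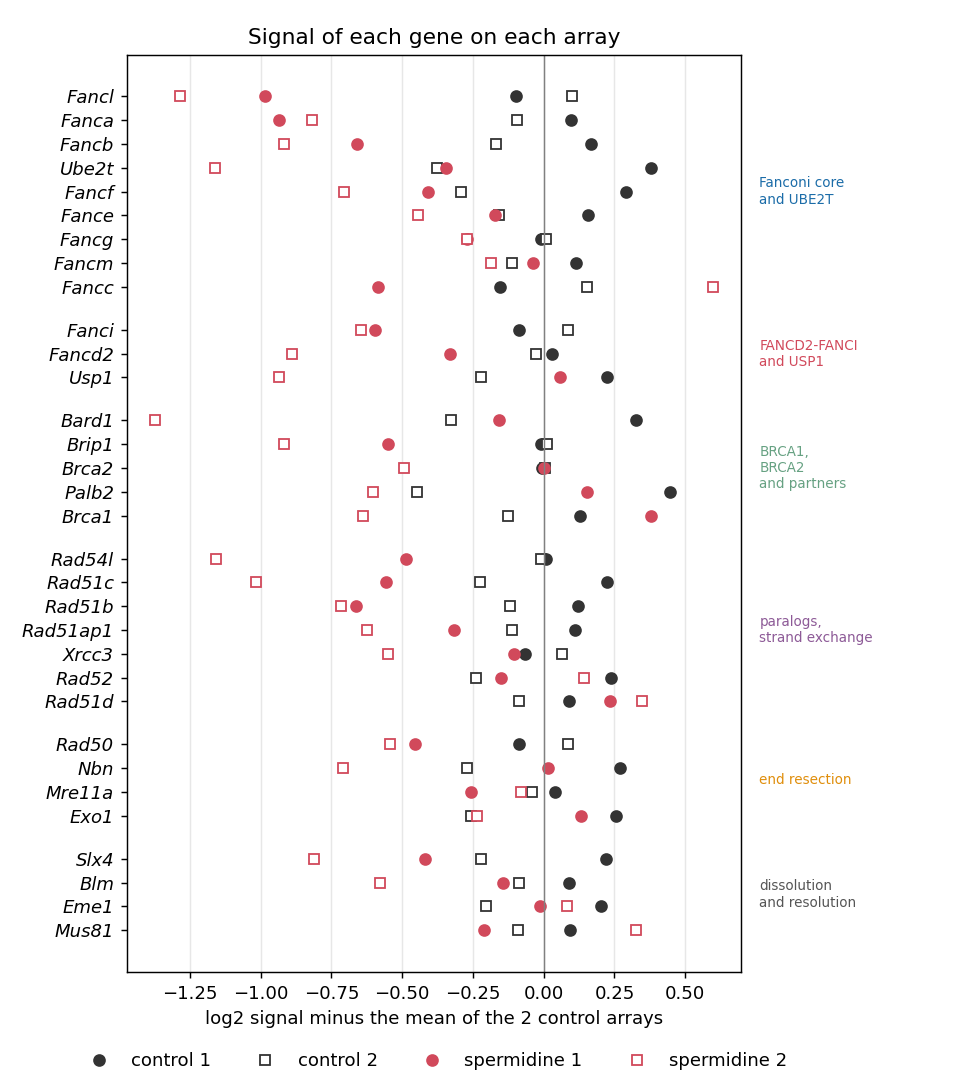
Log2 signal of each of the 32 genes on each array (horizontal axis), minus that gene's mean over the 2 control arrays; circles are replicate 1 and open squares replicate 2, dark for control and red for spermidine, grouped by role. Both red points lie left of both dark points in 18 genes, and to the right in Rad51d.

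The sequence around the start of transcription was not used in the selection. RefSeq promoter windows (GRCm38.p6, 250 bases before to 50 after the start) were found for 26 of the 32 genes. Each window was searched on both strands for the E2F-type sites TTTGGCGC, TTTCCCGC, TTTGCCGC and TTTCGCGC, the cell cycle (CHR) elements TTTGAA and TTCGAA, the CCAAT box CCAAT and the GC box GGGCGG. The first window of a gene held an E2F-type site in 4 of 26 genes (15.4%), against 2.32% of 27025 genes with a window. A CCAAT box was found in 17 of 26 (65.4%, against 37.9%), a GC box in 15 of 26 (57.7%, against 35.9%) and a CHR element in 2 of 26 (7.69%, against 19.4%). The reference windows include noncoding and predicted genes, and a match describes letters only.

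The 4 genes with an E2F-type site were Bard1, Brca2, Fancg and Rad51c. The site and its flanks are shown because they carry this count, 5′ to 3′ on the strand of the gene, with the site in capitals. They lie at chr1:71103163-71103192 (Bard1, minus strand), chr5:150522442-150522471 (Brca2, plus strand), chr4:43010335-43010364 (Fancg, minus strand) and chr11:87404477-87404506 (Rad51c, minus strand). In Brca2 the letters are the reverse complement of TTTCCCGC. The site of Rad51c lies after the start, the other 3 before it.
Bard1: ccgccgctcagTTTCCCGCtcaggaagttt
Brca2: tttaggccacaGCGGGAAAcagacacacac
Fancg: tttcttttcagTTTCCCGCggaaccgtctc
Rad51c: gtttccagcgcTTTCGCGCctcttgctcta

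The 250 bases before the start are shown for the 4 genes with the largest test statistics and a promoter window, Fancl, Fanca, Fancb and Brip1, and for Eme1, which had the smallest difference of the genes above background. Capitals mark CCAAT and GC boxes on either strand; in Brip1 one of each overlaps. The stretches are chr11:26386834-26387083 (Fancl, plus strand), chr8:123318577-123318826 (Fanca, minus strand), chrX:164980342-164980591 (Fancb, plus strand), chr11:86201194-86201443 (Brip1, minus strand) and chr11:94653744-94653993 (Eme1, minus strand).
Fancl: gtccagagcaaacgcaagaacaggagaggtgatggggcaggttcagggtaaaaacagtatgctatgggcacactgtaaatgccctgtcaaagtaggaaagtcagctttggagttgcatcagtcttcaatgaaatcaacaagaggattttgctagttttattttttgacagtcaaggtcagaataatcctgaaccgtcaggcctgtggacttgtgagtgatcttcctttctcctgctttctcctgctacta
Fanca: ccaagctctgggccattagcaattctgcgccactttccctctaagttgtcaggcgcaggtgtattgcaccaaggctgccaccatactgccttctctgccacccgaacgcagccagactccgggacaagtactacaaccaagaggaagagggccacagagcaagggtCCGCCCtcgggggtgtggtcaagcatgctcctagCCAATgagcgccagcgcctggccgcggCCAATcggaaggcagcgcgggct
Fancb: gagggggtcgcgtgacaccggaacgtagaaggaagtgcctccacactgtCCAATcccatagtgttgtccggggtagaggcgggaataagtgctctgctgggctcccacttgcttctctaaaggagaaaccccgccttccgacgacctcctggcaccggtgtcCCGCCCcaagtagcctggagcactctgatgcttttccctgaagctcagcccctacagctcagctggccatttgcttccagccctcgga
Brip1: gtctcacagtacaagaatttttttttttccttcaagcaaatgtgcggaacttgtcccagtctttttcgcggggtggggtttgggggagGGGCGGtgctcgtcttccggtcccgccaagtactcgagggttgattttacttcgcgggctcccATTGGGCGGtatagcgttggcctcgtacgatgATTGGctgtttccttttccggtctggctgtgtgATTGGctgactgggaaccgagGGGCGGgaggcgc
Eme1: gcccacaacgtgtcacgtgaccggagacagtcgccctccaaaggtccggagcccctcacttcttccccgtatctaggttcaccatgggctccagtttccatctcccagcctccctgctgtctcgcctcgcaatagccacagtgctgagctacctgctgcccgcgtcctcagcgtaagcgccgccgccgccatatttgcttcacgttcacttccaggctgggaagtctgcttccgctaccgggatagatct

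None of the searched letters occurred in the Fancl window, and Eme1 held only a CHR element, past its start. Brip1 carried 3 CCAAT and 3 GC boxes. A CCAAT box was found in 63.6% of the 11 windows of genes lower by more than the gap between replicates and in 66.7% of the other 15 windows, and E2F-type sites were found in 18.2% and 13.3%; these shares were not tested.

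Among the subunits of the core complex, the ubiquitin ligase of the pathway, Fancl had the largest difference. FANCL is the catalytic RING subunit. Fancl read 8.38 and 8.57 in control and 7.49 and 7.19 with spermidine, a 2.20-fold lower level. Its difference of -1.13 ± 0.24 (SE, log2) was 3.77 times the wider gap between replicates, and 0.356% of all features had a lower difference (limma adjusted p = 0.637).

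FANCB and FANCL sit in the same module of the complex, with FAAP100. Fancb stood at 8.36 and 8.02 in control and at 7.53 and 7.27 with spermidine, a difference of -0.79 ± 0.24 (SE). The spermidine arrays were both lower, by 2.36 times the wider gap. Faap100, named after its values were seen, overlapped between groups and differed by -0.07.

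FANCA, FANCG and FAAP20 form another module of the complex. Fanca read 8.45 and 8.26 in control and 7.42 and 7.54 with spermidine, a 1.84-fold lower level (difference -0.88 ± 0.22, SE). The groups did not overlap, and the difference was 4.63 times the wider gap. Fancg had close replicates, 7.43 and 7.45 in control and 7.16 and 7.17 with spermidine, and a difference of -0.27. Its groups did not overlap, but the SE from the shared variance was 0.22. Faap20, also named after its values were seen, differed by 0.08.

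FANCC, FANCE and FANCF make up the third module, which helps to dock the substrate. Fance read 9.45 and 9.14 in control against 9.12 and 8.85 with spermidine, a difference of -0.31. Fancf read 6.82 and 6.24 against 6.12 and 5.82, partly below background, with a difference of -0.56. Neither overlapped between groups, though both differences were smaller than the wider gap between replicates. Fancc stayed below background, at 5.57 and 5.87 in control and 5.13 and 6.32 with spermidine. Its spermidine arrays lay on opposite sides of the controls, and its difference of 0.0057 turned negative under other scalings.

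FANCM, the translocase that anchors the complex on DNA, differed little. Fancm read 8.57 and 8.34 in control and 8.42 and 8.27 with spermidine, and the groups overlapped. Ube2t encodes the ubiquitin-conjugating enzyme that works with FANCL. It stood at 8.51 and 7.76 in control and at 7.79 and 6.98 with spermidine, a difference of -0.75 ± 0.35 (SE). The first spermidine array lay within the control range, and the spermidine arrays lay further apart than the group means. Its difference ran from -1.16 to -0.34 without single arrays. Over the 9 genes of the core and its enzyme the median difference was -0.56, with 8 below 0 and 6 (66.7%, against 18.4% of all features) with both spermidine arrays below both controls. The median became -0.28 without control replicate 1 and -0.85 without control replicate 2.

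The substrate pair was lower in both arrays. FANCD2 and FANCI form the clamp that is ubiquitinated and loaded on DNA. Fancd2 read 9.30 and 9.24 in control and 8.94 and 8.38 with spermidine, a difference of -0.61 ± 0.26 (SE, 1.53-fold lower). Fanci read 9.03 and 9.20 in control and 8.52 and 8.47 with spermidine, a difference of -0.62 ± 0.22 (SE, 1.54-fold lower). The groups overlapped in neither gene, and the difference of Fanci was 3.59 times the wider gap. Leaving out an array moved Fancd2 between -0.89 and -0.33 and Fanci between -0.71 and -0.53.

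USP1 removes ubiquitin from the clamp. Usp1 stood at 13.88 and 13.44 in control and at 13.71 and 12.72 with spermidine. Only the second spermidine array was below the controls, and without it the difference of -0.44 became 0.056. Its partner Wdr48, named after its values were seen, differed by 0.10.

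Among the genes around BRCA1 and BRCA2, a helicase stood apart. BRIP1, also called FANCJ, is the DNA helicase that binds BRCA1. Brip1 had close control signals of 11.71 and 11.73 and read 11.17 and 10.80 with spermidine. The spermidine arrays were both lower, by -0.73 ± 0.24 (SE, log2), or 1.66-fold, which was 2.01 times the wider gap.

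BRCA1 and BARD1 form a ubiquitin ligase that starts recombination. Brca1 read 10.60 and 10.35 in control and 10.85 and 9.84 with spermidine, so that the 2 spermidine arrays lay on either side of the controls. The difference of -0.13 ± 0.34 (SE) became 0.38 without spermidine replicate 2 and -0.64 without spermidine replicate 1. Bard1 read 9.62 and 8.96 in control and 9.13 and 7.92 with spermidine, a difference of -0.77 ± 0.41 (SE). Its first spermidine array was inside the control range, and its differences without single arrays ran from -1.37 to -0.16.

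BRCA2 promotes strand exchange on resected DNA, and PALB2 joins it to BRCA1. Brca2 stood at 11.13 and 11.14 in control and at 11.13 and 10.64 with spermidine. Its first spermidine array was between the controls and its second below them. Palb2, at 6.81 and 5.92 in control and 6.52 and 5.76 with spermidine, spanned the background level in both groups. Of these 5 genes, 5 had a difference below 0, with a median of -0.25, and in 1, Brip1, the groups did not overlap (20%, against 18.4% of all features lower without overlap). The median rested on the second spermidine array: without it the value was 0.0018, and without control replicate 2 it was -0.67.

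**Figure D2:**
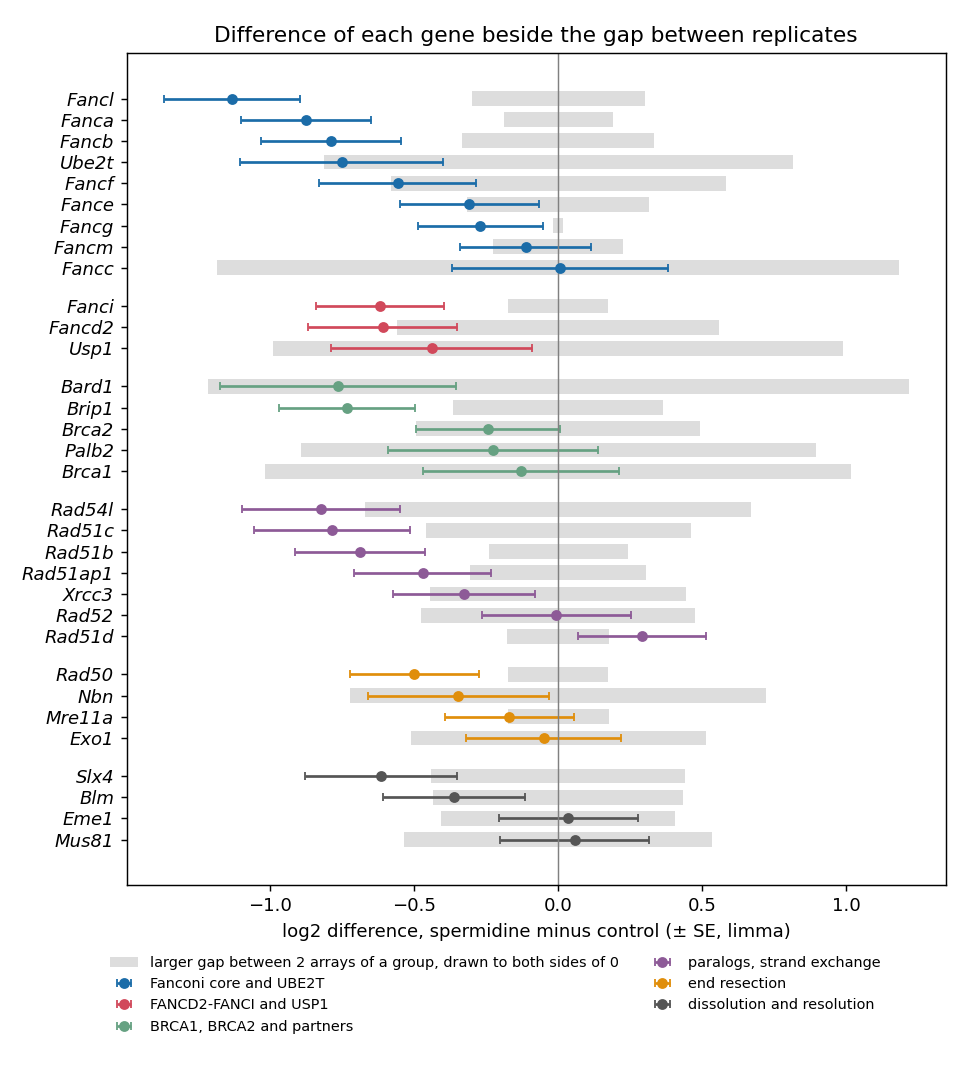
Log2 difference of each gene, spermidine minus control (points), with the standard error of limma's fit (bars), coloured by role; grey bands show the wider of the gaps between the 2 arrays of a group on both sides of 0. Points lie beyond the left end of the band in 13 genes, among them Fancl, Fanca and Fanci, and beyond the right end in Rad51d.

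The paralogs Rad51b, Rad51c, Rad51d, Xrcc2 and Xrcc3 encode proteins that work in 2 complexes, one of RAD51B, RAD51C, RAD51D and XRCC2 and one of RAD51C and XRCC3. Rad51b read 8.82 and 8.58 in control and 8.04 and 7.99 with spermidine, a difference of -0.69 ± 0.23 (SE, 1.61-fold lower). Rad51c read 9.46 and 9.02 in control and 8.68 and 8.22 with spermidine, a difference of -0.79 ± 0.27 (SE, 1.72-fold lower). Neither overlapped, and the differences were 2.86 and 1.71 times the wider gap.

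Rad51d differed from its partners in direction. It read 8.10 and 7.92 in control and 8.25 and 8.36 with spermidine. Both spermidine arrays were above both controls by a small difference of 0.29 ± 0.22 (SE), 1.64 times the wider gap (limma adjusted p = 0.835). It kept this direction under all scalings tried and without any single array, between 0.20 and 0.38. Xrcc3 read 8.22 and 8.35 in control and 8.18 and 7.74 with spermidine; the groups did not overlap, but the first spermidine array lay just below the nearest control.

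Other factors help the exchange of strands. RAD54L is a motor protein that opens the target duplex. Rad54l had close control signals of 10.08 and 10.06 and read 9.58 and 8.91 with spermidine, a difference of -0.82 ± 0.27 (SE, 1.77-fold lower). It became -0.49 without spermidine replicate 2 and -1.16 without spermidine replicate 1. RAD51AP1 stabilises the joined strands. Rad51ap1 read 9.84 and 9.62 in control and 9.42 and 9.11 with spermidine, a difference of -0.47. In both genes the groups did not overlap and the difference exceeded the wider gap. Rad52, an annealing factor, lay far below background on every array, between 2.78 and 3.25, so its difference carries no level. Of the 7 genes of this role, 6 had a difference below 0, Rad52 among them, and the median was -0.47. In 5 (71.4%, against 18.4% of all features) both spermidine arrays were below both controls. The median ran from -0.62 to -0.32 without single arrays.

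Of the genes of end resection, Rad50 had the largest difference. MRE11, RAD50 and NBN form the complex that binds a broken end and makes the first cut. Rad50 read 12.21 and 12.38 in control and 11.84 and 11.75 with spermidine, a difference of -0.50 ± 0.22 (SE), 2.86 times the wider gap. Mre11a read 11.40 and 11.32 in control and 11.11 and 11.28 with spermidine; its groups did not overlap, and its difference of -0.17 was about the size of the gap between the spermidine arrays. Nbn read 9.77 and 9.23 against 9.51 and 8.79, and overlapped.

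EXO1 is the exonuclease that extends the cut. Exo1 read 9.87 and 9.36 in control and 9.75 and 9.38 with spermidine. The pairs nearly coincided, and the difference of -0.05 became 0.0036 after a further quantile normalization. The 4 genes had a median difference of -0.26. In 2 of 4 (50%, against 18.4% of all features) both spermidine arrays were below both controls. The median ran from -0.39 to -0.10 when single arrays were left out.

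The last step separates the joined chromosomes, by the BLM helicase or by nucleases held on the SLX4 scaffold, among them MUS81 with EME1. Slx4 read 7.97 and 7.53 in control and 7.33 and 6.93 with spermidine, a difference of -0.62 ± 0.26 (SE, 1.53-fold lower). Blm read 11.36 and 11.18 in control and 11.13 and 10.69 with spermidine, a difference of -0.36. The groups overlapped in neither gene, and only that of Slx4 was beyond the wider gap. Eme1, at 7.75 and 7.35 in control and 7.54 and 7.63 with spermidine, and Mus81, at 6.15 and 5.96 against 5.84 and 6.38 and mostly below background, overlapped and differed by 0.04 and 0.06. The 4 genes had a median of -0.16, which ran from -0.31 to -0.06 without single arrays.

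The 2 arrays of each group were not alike for these genes. The second spermidine array was lower than the first in 24 of 32 genes, with a median gap of -0.30 between them, against -0.02 over all features. Most of these genes are above background, and features above background averaged 10.26 and 10.17 in control and 10.23 and 10.13 with spermidine. The second array of each group was thus lower among brighter features as well. It held the lowest of the 4 signals in 23 genes and the first spermidine array in 5. The second control array was likewise lower than the first in 24 genes, with a median of 0.22 for the first minus the second. The gap between the spermidine arrays was wider than that between the controls in 17 genes. In 8 genes, Bard1, Brca1, Brca2, Fancm, Nbn, Palb2, Ube2t and Usp1, only the second spermidine array was below both controls. For the counts in this paragraph no share of all features is given, so they cannot be read as particular to these genes. Fanca, Fanci, Fancg, Rad51b and Rad50 were about as low in both.

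**Figure D3:**
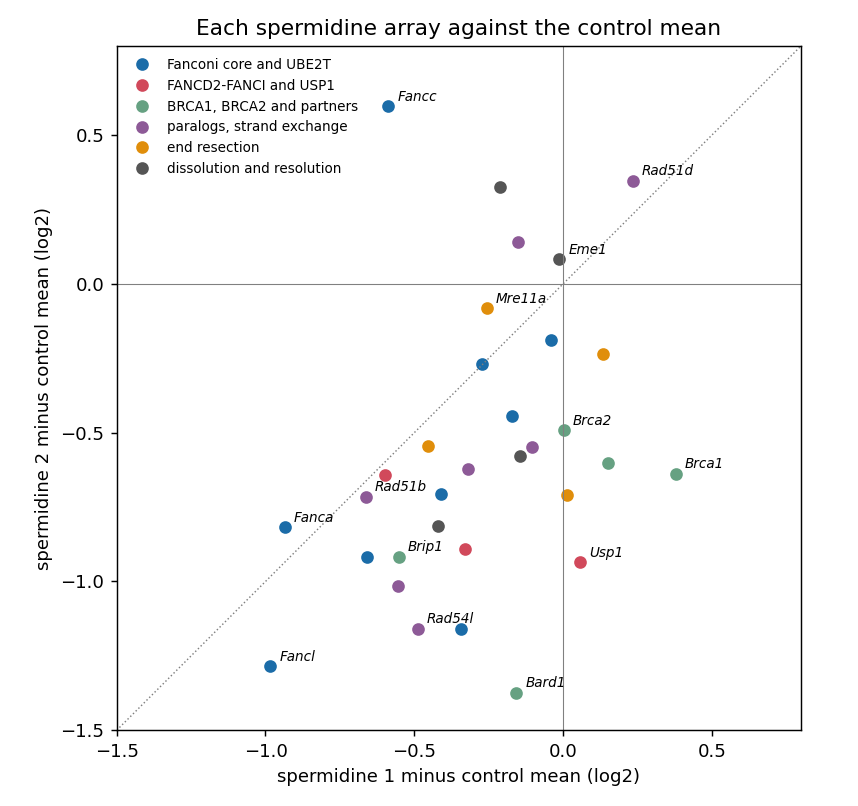
Each gene's log2 signal in the first spermidine array (horizontal axis) and in the second (vertical axis), both minus its control mean, coloured by role; the dotted line marks equal values. Fancl and Fanca are low on both axes, Brca1 (0.38 and -0.64) and Usp1 (0.056 and -0.93) only on the vertical one, and Rad51d is above 0 on both.

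Other genes of the pathway, from a list that shares no gene with the set, were mostly lower as well. Of 42 genes listed 41 were measured; 32 had a difference below 0 (median -0.28), 20 (48.8%, against 18.4% of all features) lay below the controls in both spermidine arrays and 4 above (9.76%, against 18.3%). The median ran from -0.43 to -0.19 without single arrays, a range that overlaps that of the set. The largest statistics belonged to Hrob, which helps load the MCM8-MCM9 helicase, to Cenpx, a partner of FANCM, and to Fignl1, an ATPase of recombination. Hrob read 8.10 and 7.13 in control and 6.43 and 6.44 with spermidine (difference -1.18 ± 0.33, SE). Its spermidine signals lay just above the background of 6.35, and its control signals were 0.97 apart. Cenpx and Fignl1 differed by -0.96 and -1.03, again without overlap. The 4 genes that lay above the controls, named after their values were seen, were the nuclease genes Slx1b (0.47), Ercc4 (0.50) and Fan1 (0.55) and the ubiquitin-binding Uimc1 (0.47). Slx1b and Fan1 were below background in every array.

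Neighbouring repair pathways gave these values. DNA damage and replication stress signalling had 16 of 17 genes below 0 and a median of -0.34. In 11 of 17 (64.7%, against 18.4% of all features) both spermidine arrays lay below both controls. That median ran from -0.61 to -0.21 without single arrays. Its histone H2ax, which is phosphorylated around breaks, read 14.86 and 14.65 in control and 13.88 and 13.39 with spermidine. End joining and the 53BP1 pathway, which rejoin ends without a template, had a median of -0.03, with 2 of 15 genes below both controls and 2 above (13.3% each way, under the 18.4% and 18.3% of all features). Prkdc, the catalytic kinase of end joining, differed by 0.39. Rif1, which acts with 53BP1 and had the largest difference of that list, read 11.86 and 11.05 in control against 11.29 and 10.38 with spermidine, a difference of -0.62 with overlapping groups. Mismatch repair had a median of -0.09 (5 genes), base excision repair -0.19 (16 genes) and nucleotide excision repair 0.07 (15 genes). Leaving out an array turned the sign of 3 of these medians, with ranges of -0.19 to 0.07 for end joining, -0.22 to 0.04 for mismatch repair and -0.05 to 0.10 for nucleotide excision repair, while base excision repair ran from -0.35 to -0.09. The differences between these lists were not tested.

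Cell cycle genes were lower on the same arrays. The replication and G1/S list, 29 measured genes, had a median of -0.63, with 29 of 29 below 0, and the 25 of mitosis and G2/M a median of -1.14, with 25 of 25 below 0. Without single arrays these medians ran from -0.99 to -0.40 and from -1.58 to -0.66, closest to 0 without spermidine replicate 2. The mean signal of the recombination and Fanconi genes read 8.996 and 8.759 in control against 8.601 and 8.321 with spermidine. The replication list averaged 10.91 and 10.63 against 10.43 and 9.89, and the mitosis list 12.22 and 11.96 against 11.44 and 10.52, so the 3 lists had the same order of arrays. That order was not limited to them. The other recombination and Fanconi genes averaged 9.37 and 9.24 against 9.19 and 8.92, and damage and replication stress signalling 10.33 and 10.13 against 9.98 and 9.60. The lists of end joining, mismatch, base excision and nucleotide excision repair had other orders. The 24 genes of the p53 response were higher, with a median of 0.46 and 24 of 24 above 0. The part of the cell cycle in the values of the recombination genes was not tested.

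**Figure D4:**
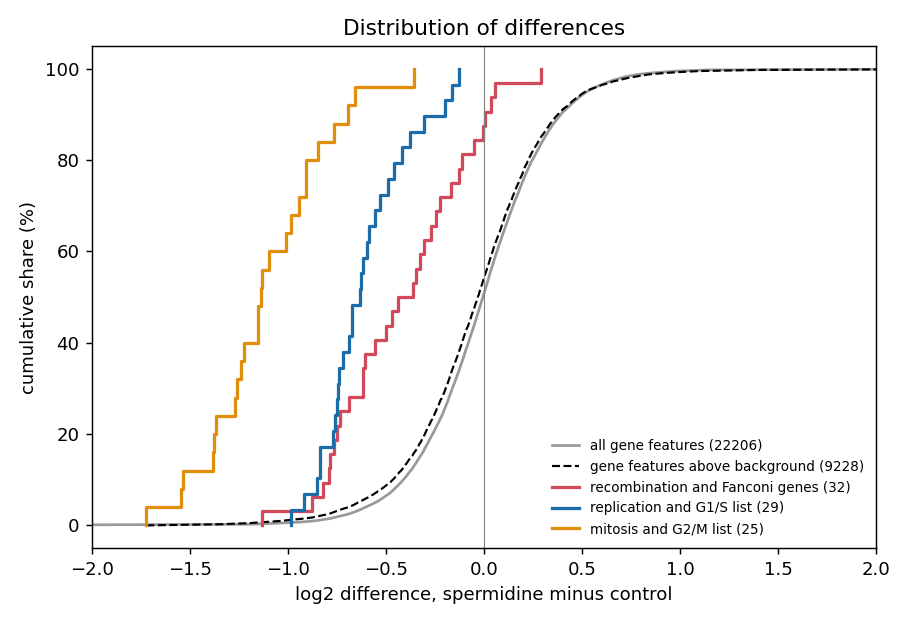
Cumulative share (vertical axis, %) of log2 differences, spermidine minus control (horizontal axis, shown from -2 to 2), for all gene features, features above background, the 32 recombination and Fanconi genes, the replication list and the mitosis list. The medians are -0.40 for the 32 genes, -0.63 for replication and -1.14 for mitosis, with all features centred near 0.

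**Figure D5:**
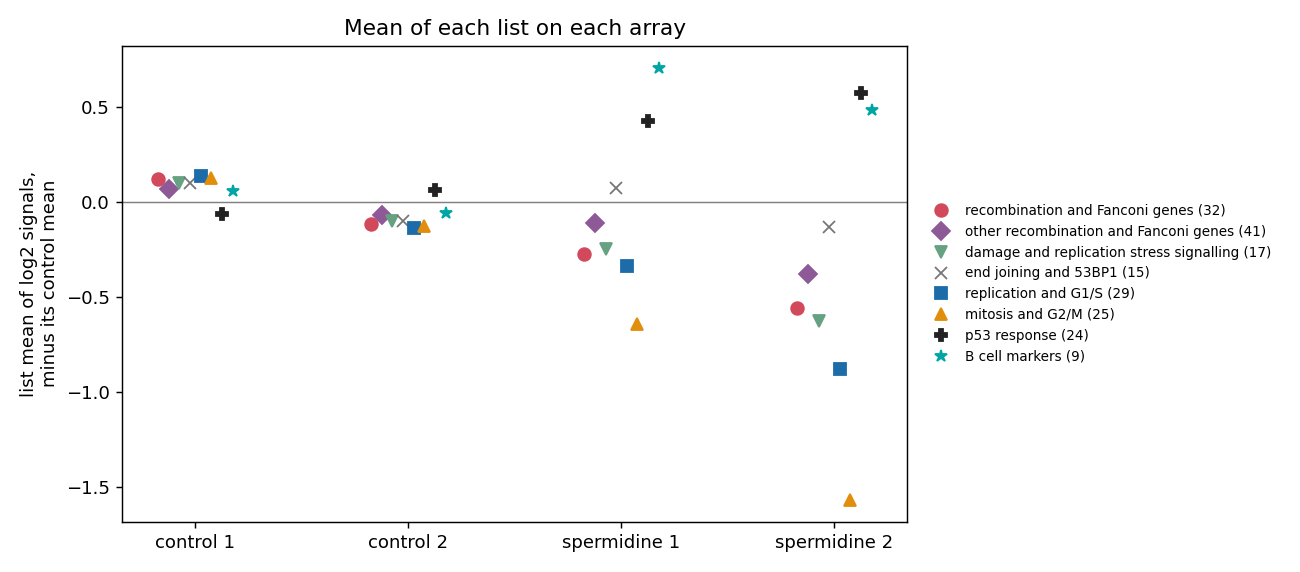
Mean log2 signal of each gene list on each array, minus the mean of its 2 control values (vertical axis); symbols are lists, with the number of genes in brackets. All lists drawn except p53 response genes and B cell markers are lowest in the second spermidine array, while p53 response genes and B cell markers are higher in both spermidine arrays.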

How the data were processed

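Per the submitters' processing notes, the authors used Affymetrix Expression Console with RMA, versions not given, and deposited one log2 signal for each feature of each array. RMA subtracts background, quantile-normalizes the arrays and combines the probes of a feature, which compresses differences at dim signals. The log2 base was inferred from the values (1.72 to 19.93 in gene features), and any rescaling stays unknown. Each array took 250 ng of total RNA, per the labels.

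Control features (6640) were left out. The 22206 gene features were fitted with limma 3.58.1 (R 4.3.3; lmFit, eBayes; spermidine minus control, two-sided, no covariate), with Benjamini-Hochberg adjustment over all of them and a threshold of 0.05. With 2 arrays a group, the smallest p of an exact permutation test is 0.333, so none was run. The platform annotation named 19572 features; 2634 had no symbol. The fit was also run on simulated data with known changes. It detected a change of 2-fold in 4.18% of cases, and one of 4-fold in 84.1%. Only 1 gene of the set was lower by more than 2-fold. The absence of passing genes therefore says little about differences of the size seen here.

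The genes of the set and the gene lists were chosen with earlier results of these data known. All genes of the set are reported; from each other list up to 3 genes with the largest statistics could be named. Alternatives were other prior variances, array weights, other scalings, filters on dim features, a replicate block, averaging features of a symbol, another threshold and leaving out each array.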

Additional observations from a re-analysis of the deposited data

How the results depend on the processing

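No gene of the set passed an adjusted p of 0.05 under any alternative tried; the lowest adjusted p among them was 0.228 (limma with the replicate block). Over all features the count of 0 became 1 with a prior variance that follows intensity, after median centring, after cyclic loess, among features above the median level, with the replicate block and at an adjusted p of 0.25; under the 5 settings at a threshold of 0.05 the feature was Hmox1, which is not in the set. Leaving out an array gave between 0 and 0 features. The count of genes below both controls (18) ran from 16 to 19 with all arrays and from 19 to 27 without an array, when a group of 1 array passes more easily: the share of all features went from 18.4% to between 32.8% and 37.3%. The count of lower genes at an unadjusted p under 0.05 (10) ran from 9 to 14 with all arrays, 14 being with the replicate block, and from 2 to 12 without an array. The number of all features at an unadjusted p under 0.05, in either direction, was 1558 in the main fit and 2350 with the replicate block. Without spermidine replicate 1 that number was higher than in the main fit, and without any other single array it was lower. The count of genes moved the same way in each of these fits. The median difference ran from -0.44 to -0.35 with all arrays and from -0.63 to -0.26 without an array. Same-numbered arrays deviated together with r = 0.210 across features and r = 0.477 over the 32 genes, but with 2 pairs and no label on what a number means they share only a number.

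Near 0, Fancc became -0.0059, -0.0085 and -0.0070 after quantile normalization, median centring and cyclic loess, and Exo1 0.0036 after quantile normalization. Leaving out an array turned the sign of 10 genes, with ranges of -0.59 to 0.60 for Fancc, -0.67 to 0.22 for Palb2, -0.24 to 0.23 for Rad52, -0.31 to 0.21 for Exo1, -0.17 to 0.24 for Eme1, -0.21 to 0.32 for Mus81, -0.64 to 0.38 for Brca1, -0.49 to 0.0018 for Brca2, -0.71 to 0.015 for Nbn and -0.93 to 0.056 for Usp1. The cause was not tested. Signals near background limit Fancc, Fancf, Mus81, Palb2 and Rad52.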
